A study of Vitis vinifera with 8 samples.

Results

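The response to 1 hour of heat was measured in ripening grape berries after véraison, the onset of ripening at which the fruit softens, colours and gains sugar. The comparison rests on 4 of the 8 libraries of the series, 2 replicates of berries picked at 38 °C and 2 of berries picked at 16 °C, and covers all 25771 listed genes. The libraries were chosen by their titles and not by any measured value. The plants were fruiting microvines, dwarf grapevines derived from the L1 cell layer of the cultivar Pinot Meunier, a line whose gibberellin signalling is altered by a mutation in a DELLA gene. They grew in pots in a room at 16 °C with 16 hours of light and 46% humidity. Unheated berries were picked at 9 AM, the room was then set to 38 °C, and heated berries were picked at 10 AM, so that temperature and hour of picking cannot be told apart. The berries were 12 to 14 weeks past anthesis, and the seeds had been removed. The other 4 libraries, from green berries at 5 to 6 weeks picked at the same temperatures and hours, are used here to estimate the spread and to show where the response of ripening berries differed. The series design states 2 biological replicates per group.

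Plant cells answer heat through heat stress transcription factors (Hsf), which switch on genes for chaperones that keep other proteins folded or take aggregates apart. HsfA2 is itself switched on by heat and extends the response, and HSP101 is the cytosolic chaperone of the ClpB family that pulls proteins out of aggregates. BiP, an HSP70 chaperone of the endoplasmic reticulum, belongs to the response to unfolded proteins in that compartment.

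Expression values are RPKM, reads per kilobase of gene and per 1e+06 reads of the library. The 4 post-véraison libraries rested on 8167704 and 11243341 reads at 16 °C and 9459339 and 10121400 reads at 38 °C, and for a gene of the median length of 1541 bases 3 reads made 0.173 to 0.238 RPKM. Replicates correlated at a Pearson r of 0.990 at 16 °C and 0.992 at 38 °C across genes, on the log2 scale. Between 25.2 and 28% of the RPKM total of each library came from its top 10 genes. Fewer cells of a type and less RNA per cell cannot be told apart in such whole-berry samples.

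Heat after véraison raised a small set of transcripts and lowered a smaller one. Of 16777 genes tested, 183 were higher at 38 °C (1.09%) and 27 were lower (0.161%), at a limma adjusted p below 0.05, which is what "called" means throughout. The rises ranged from 0.55 to 4.58 on the scale of log2(RPKM + 1), with a median of 1.27. Of the 183 genes, 117 rose by at least 1 log2 unit, 43 by at least 2 and 21 by at least 3. The falls were shallower, from 0.47 to 1.76 log2 units in size with a median difference of -0.81, and 6 of the 27 reached 1 log2 unit. The median difference of all genes tested was 0.02. At an unadjusted p below 0.05, 1040 genes were higher and 584 lower.

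**Figure D1:**
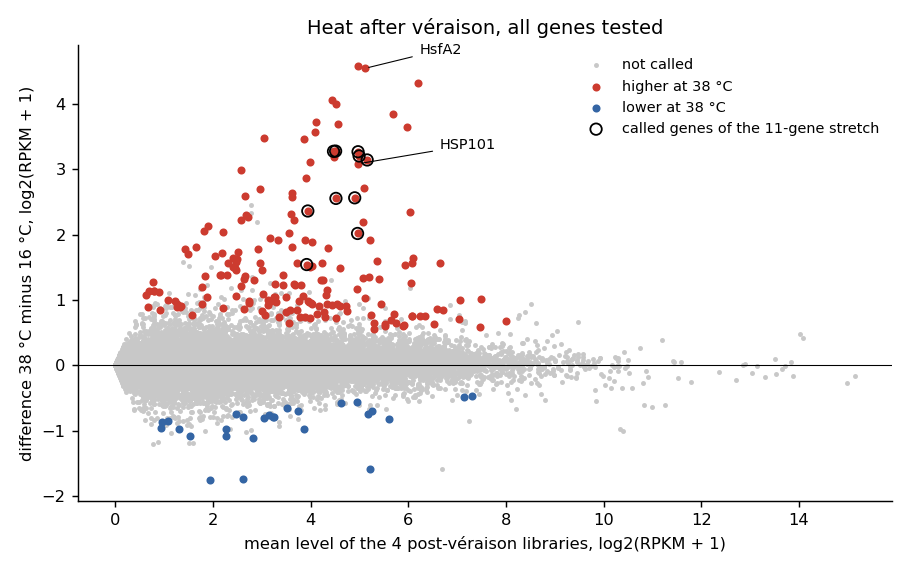
Difference between 38 °C and 16 °C after véraison, in log2(RPKM + 1), against the mean level of the 4 post-véraison libraries, for the 16777 genes tested. Each point is a gene. Red points mark the 183 genes called higher, blue points the 27 called lower and open circles the 10 called genes of a stretch of neighbouring genes. The red points reach 4.58 and the blue points -1.76.

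In the genes that rose, the median level at 16 °C was 5.19 RPKM, against 19.7 RPKM after the hour of heat. At 16 °C, 26 of the 183 lay below 1 RPKM. At 38 °C, 15 of the 183 stood at 100 RPKM or more. Some of those were above 100 RPKM at 16 °C already, such as LOC100246843 at 114 and 119 RPKM. The summed level of the 183 genes was 2551 and 2449 RPKM in the unheated libraries and 6595 and 6220 RPKM in the heated ones. This sum was 0.368% and 0.355% of the RPKM total at 16 °C, and 0.956% and 0.896% at 38 °C. The genes that fell went from a median of 10.22 to one of 5.57 RPKM. For all 210 called genes the heated and unheated libraries did not overlap, which was also so for 40.3% of all genes tested. The genes that rose had a median recovered length of 1143 bases and those that fell of 995 bases, against 1500 bases over all genes tested.

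The counts rest partly on the spread of the green berry libraries. The totals that follow are those of each fit and may include genes outside the 183 and 27. With 1 heated replicate left out, whichever it was, most of the 27 falls lost their call. With only the 4 post-véraison libraries in the fit, 36 genes were higher and 0 lower at the same limma threshold. Leaving out heated replicate 1 or heated replicate 2, 91 and 104 genes were higher and 13 and 3 were lower.

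HSP101 and HsfA2 were the 2 genes with a descriptive name among the 210 called. HsfA2 was measured at 1.12 and 2.75 RPKM in the unheated libraries and at 73.8 and 57.1 RPKM in the heated ones. The libraries of the 2 temperatures lay far apart, averaging 1.93 ± 1.15 RPKM unheated and 65.4 ± 11.8 RPKM heated (SD, n = 2), 33.9 times as much. On the log2 scale the rise was 4.55 ± 0.27 (SE), with a limma adjusted p of 1.54e-05. These levels rest on 13 and 44 reads at 16 °C and on 994 and 823 reads at 38 °C.

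HSP101 stood at 4.74 and 6.45 RPKM at 16 °C and at 65.2 and 45.7 RPKM at 38 °C. Both heated libraries were above both unheated ones. The means were 5.6 ± 1.21 and 55.4 ± 13.8 RPKM (SD, n = 2), which is 9.91 times as high, and the rise was 3.09 ± 0.17 (SE) log2 units (limma adjusted p = 1.37e-05). BiP was measured at 3.89 and 4.13 RPKM at 16 °C and at 4.28 and 3.96 RPKM at 38 °C, so its libraries overlapped. Its difference was 0.03 ± 0.15 (SE) log2 units (limma adjusted p = 0.986), while in green berries the same gene rose by 1.45 log2 units. The difference between these responses was called (interaction -1.42, limma adjusted p = 0.00316).

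**Figure D2:**
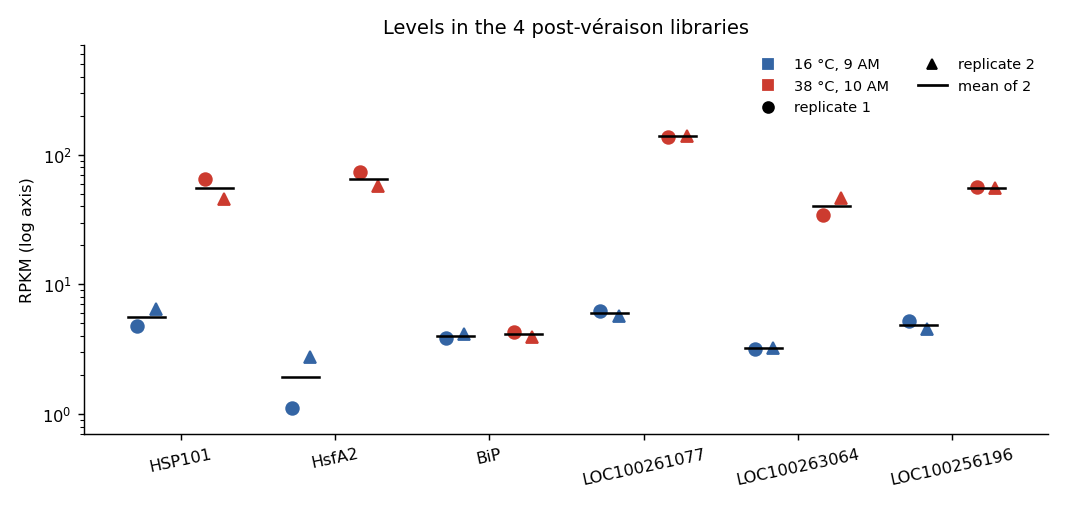
RPKM of 6 genes in each of the 4 post-véraison libraries, on a log axis. Blue symbols are 16 °C, red symbols 38 °C, circles replicate 1, triangles replicate 2 and lines the mean of 2. HSP101, HsfA2 and the 3 genes given by placeholder symbols have no overlap between temperatures, and the 4 values of BiP lie between 3.89 and 4.28 RPKM.

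The other largest rises belonged to genes with only a placeholder symbol or with no row in the reference table, so no role is given for them here. LOC100260747 rose the most, from 0.922 and 2.22 RPKM to 64.3 and 53.4 RPKM (log2 difference 4.58 ± 0.21 SE, limma adjusted p = 3.7e-06). LOC100261077 went from 6.22 and 5.73 RPKM to 138 and 140.3 RPKM. Its replicates lay close together, with means of 5.97 ± 0.343 and 139 ± 1.82 RPKM (SD, n = 2) and a rise of 4.33 ± 0.09 (SE) log2 units (limma adjusted p = 7.13e-09). It was called under each of the 22 alternative settings, which held for 8 of the 183 genes. The setting with the fewest calls, a replicate block with only the 4 post-véraison libraries, called 8 genes in all. HSP101 and HsfA2 were called under 21 of the 22.

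Other placeholder genes started from low levels. LOC100250883 went from 0.69 and 2.51 to 44.2 and 35.8 RPKM, and LOC100249153 from 0.722 and 3.04 to 45.8 and 37.5 RPKM. LOC100254252 was at 0.152 and 0.552 RPKM at 16 °C and at 16.8 and 11.4 RPKM at 38 °C. In these 3 genes replicate 2 was the higher of the unheated libraries and replicate 1 the higher of the heated ones, the same order as in HsfA2 and HSP101. Of the 34 genes that rose by at least 2 log2 units outside the stretch described next, 26 had the higher unheated value in replicate 2. The higher heated value was in replicate 1 for 28 of them. With the stretch included the counts were 29 and 31 of 43. The shares were 39.9% and 59.0% over all 183 risen genes, and 54.1% and 48.7% over all genes tested. What separates the replicates of these genes was not tested. Other genes rose from higher levels. LOC100253548 went from 4.01 and 7.81 to 107 and 83.6 RPKM, and LOC100246843 from 114 and 119 to 242 and 234 RPKM, the latter a rise of 1.02 log2 units.

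A stretch of neighbouring genes held 10 of the rises. In the gene order of the reference assembly, 11 consecutive listed genes ran from LOC100264828 to LOC100261290, and 10 of them were called higher after véraison. The stretch was picked out after its values were seen and no test was made of it. Their rises were 1.54 to 3.28 log2 units with a median of 2.85, and their ratios of means 3.09 to 12.6 with a median of 8.39. They held 9 of the 43 genes that rose by at least 2 log2 units. Their summed level was 64.4 and 52.5 RPKM at 16 °C and 426 and 449 RPKM at 38 °C, from 368 and 417 reads and from 2857 and 3218 reads.

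Within the stretch, LOC100263064 had 3.19 and 3.22 RPKM at 16 °C and 34.2 and 46.5 RPKM at 38 °C, a rise of 3.28 ± 0.20 (SE) log2 units (limma adjusted p = 1.94e-05). LOC100242538 went from 4.30 and 2.20 to 36.6 and 41.4 RPKM. LOC100245897 reached the highest level of the stretch, from 5.85 and 6.66 to 63.6 and 62.5 RPKM. In each of these 3 genes the heated libraries lay above the unheated ones. LOC100264828, at the edge, had the smallest rise, from 9.22 and 4.56 to 17.4 and 25.2 RPKM (1.54 log2 units, limma adjusted p = 0.0222). That call was lost without replicate 2 of the unheated berries (0.0927), without replicate 1 or 2 of the heated ones (0.053 and 0.223) and without either heated green berry library (0.0749 and 0.0746). LOC100240803 was the 1 gene of the stretch that was not called, at 1.54 and 0.559 RPKM at 16 °C and 3.82 and 5.59 RPKM at 38 °C (1.5 log2 units, limma adjusted p = 0.064).

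The genes just outside the stretch gave no call. On one side, LOC100259646 differed by 0.15 and LOC100254527 by 0.24 log2 units, and on the other LOC100266494 differed by 0.51 and LOC100244149 by 0.07. The called genes of the stretch had recovered lengths of 624 to 862 bases. LOC100251039 and LOC100256196, which lie next to each other, had nearly equal reads in every library, 34 and 32, 41 and 38, 390 and 399, and 435 and 415 in the order of the post-véraison libraries. How the authors counted reads that match more than 1 place is not given in the sources used here, so near-identical neighbours may have shared reads and their values are uncertain.

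**Figure D3:**
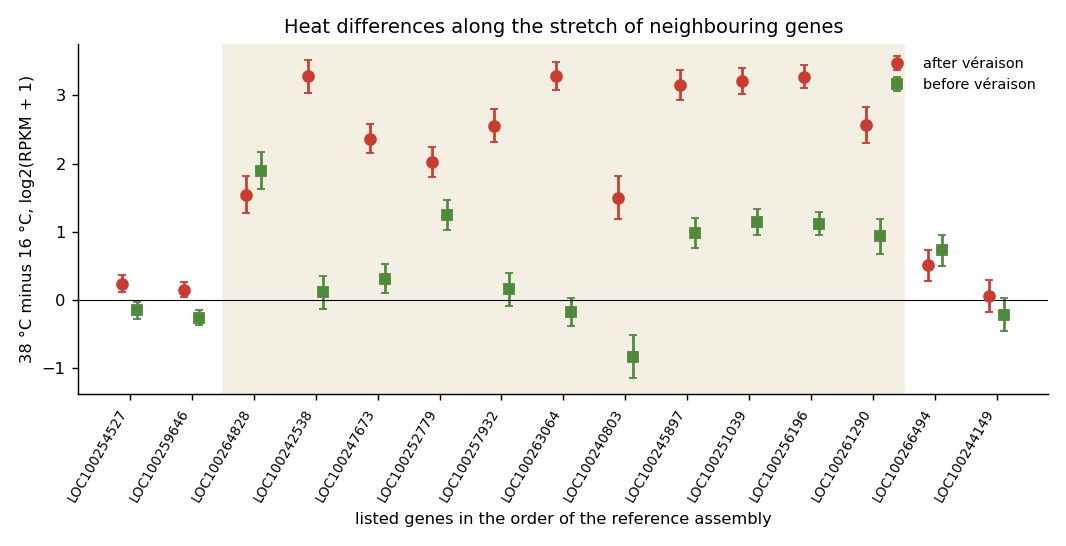
Difference between 38 °C and 16 °C in log2(RPKM + 1) for 11 consecutive listed genes (shaded) and 2 neighbours on each side, in the order of the reference assembly. Red circles are after véraison, green squares before it, and bars are ± 1 SE of the limma fit. In the shaded genes the red circles lie at 1.5 to 3.28, and the neighbours lie at 0.07 to 0.51.

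Neighbouring rises were not limited to this stretch. Of the 157 risen genes placed in the reference order, 35 (22.3%) had another risen gene as a direct listed neighbour, against 249 of 13893 tested genes (1.79%). They formed 13 runs, 8 of 2 genes, 3 of 3, and 1 each of 4 and 6, and these last runs make up the stretch. One run of 3 held LOC100243983, LOC100261109 and LOC100254252, which rose by 2.19, 2.59 and 3.47 log2 units. Another pair, LOC100241568 and LOC100246695, was expressed almost only after véraison. LOC100241568 had 39.7 and 27.0 RPKM at 16 °C and 84.0 and 116 RPKM at 38 °C, and LOC100246695 had 35.5 and 24.9 and then 75.0 and 104 RPKM. The highest green berry value of either gene was 0.566 RPKM. Without replicate 2 of the heated ripening berries the rises of this pair were not called (limma adjusted p = 0.0586 and 0.067). Of the 23 lowered genes with a place in the order, 0 had a lowered neighbour. The remark on reads shared between near-identical neighbours holds for these runs too. Risen genes with no row in the reference table may share reads as well. 100266371 and 100261970 both had 52.8 and 45.2 RPKM at 16 °C. At 38 °C they had 87.6 and 78.3 RPKM, and 87.6 and 78.5 RPKM. Such genes may not be separate measurements.

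None of the 27 genes that fell carried a descriptive name. LOC100259648 had 61.5 and 47.6 RPKM in unheated berries and 17.1 and 17.6 RPKM in heated ones. The groups did not overlap, and the difference was -1.59 ± 0.24 (SE) log2 units (limma adjusted p = 0.00885), but 0.0627 to 0.0816 without replicate 1 of the unheated berries or either replicate of the heated ones. LOC100260356 went from 11.4 and 5.59 to 2.22 and 1.27 RPKM, with a difference of -1.74 (limma adjusted p = 0.0098, and 0.111 without replicate 2 of the heated berries). LOC100245970 was steadier, at 18.4 RPKM in both unheated libraries and 8.62 and 9.19 RPKM in the heated ones. Its difference of -0.97 ± 0.12 (SE) log2 units had a limma adjusted p of 0.00288. It was the 1 lowered gene that stayed called whichever of the 4 post-véraison libraries was left out, and 71 of the 183 raised genes did so.

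The same hour of heat was then compared between the stages, through the interaction of stage and temperature in the same fit. In green berries 1335 genes were called higher (7.96%) and 2082 lower (12.4%). Of the 183 genes that rose after véraison, 158 also rose in green berries, 25 were not called there and 0 were called lower. The interaction was negative for 116 of the 183, a smaller rise in ripening berries, with a median rise of 1.38 log2 units after véraison against 4.18 before it. Over all genes, 592 had a called negative interaction (3.53%) and 662 a positive one (3.95%). The difference in response was called for HSP101 (-3.94, limma adjusted p = 1.22e-05) and HsfA2 (-2.96, limma adjusted p = 0.00102), which had risen by 7.03 and 7.51 log2 units in green berries. HSP101 started from a like level at the earlier stage, 6.73 ± 0.548 RPKM at 16 °C, and reached 1009.6 ± 92.2 RPKM there (SD, n = 2).

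For 20 of the 183 the interaction was positive, a larger rise after véraison, with medians of 1.55 log2 units after and 0.10 before. Genes were counted here for being called after véraison, which favours larger differences at that stage. Some of the 20 genes were hardly expressed in green berries at either temperature, so their small differences there say little. Examples outside the stretch were 100265909 (0 RPKM in each green berry library), LOC100264747 (0 to 0.172 RPKM) and LOC100258684 (0 to 0.243 RPKM). Others were well expressed there, such as LOC100255807 at 42.0 to 52.6 RPKM. Of these 20 genes, 8 belonged to the stretch of neighbours, where a pseudocount of 0.1 or limma voom on recovered reads left 6 such calls. There LOC100263064 differed by -0.17 log2 units in green berries (interaction 3.45, limma adjusted p = 6.72e-05) and LOC100242538 by 0.12 (interaction 3.16, limma adjusted p = 0.000328). The summed level of the 10 called genes of the stretch in green berries was 15.6 and 16.6 RPKM at 16 °C and 45.7 and 28.9 RPKM at 38 °C, below each post-véraison library. Of the 10, 6 were also called higher before véraison. Outside the stretch, LOC100264994 rose from 11.2 and 8.06 to 21.5 and 17.9 RPKM in ripening berries, while in green berries it had 326 and 356 RPKM at 16 °C and 285 and 248 RPKM at 38 °C (interaction 1.33, limma adjusted p = 0.00409). Its rise after véraison was not called without replicate 2 of the unheated berries (0.0573) or replicate 1 of the heated ones (0.118). LOC100260128 rose from 0.403 and 0.195 to 2.43 and 4.23 RPKM, and was at 0 to 0.181 RPKM in green berries. It was tested only because the heated ripening libraries reached 1 RPKM. With a pseudocount of 0.1 its rise was not called (limma adjusted p = 0.0557). For the pair LOC100241568 and LOC100246695, near 0 in green berries, the interaction was 1.18 and 1.27 with a pseudocount of 1 and -0.42 and 0.71, neither called, with one of 0.1 (limma adjusted p = 0.587 and 0.385).

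For the remaining 47 genes the interaction was not called, with median rises of 0.99 after and 0.95 before véraison. Of the 27 lowered genes, 18 also fell in green berries. The fall was smaller after véraison for 5 and larger for 2, and for 20 the interaction was not called. LOC100266481 was 1 of the 2 with a larger fall, from 6.44 and 4.67 to 2.42 and 1.73 RPKM after véraison (-1.09 log2 units) and by 0.38 the other way before it, a difference that was not called in green berries (limma adjusted p = 0.227). Its call after véraison was lost without replicate 1 of the unheated berries (0.195), without replicate 1 or 2 of the heated ones (0.0816 and 0.266) or without either heated green berry library (0.0684 and 0.0691).

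**Figure D4:**
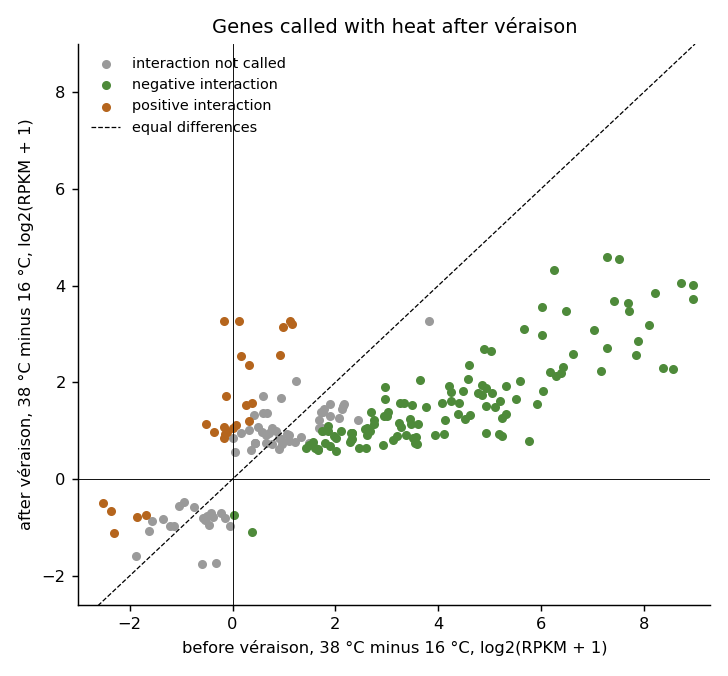
Difference between 38 °C and 16 °C after véraison against that before véraison, both in log2(RPKM + 1), for the 210 genes called after véraison. Green points have a called negative interaction, brown points a called positive one, grey points none, and the dashed line marks equal differences. Most raised genes lie below the line (116 of 183 with a called negative interaction), and 20 lie above it with a called positive one.

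Genes with a descriptive name were read by role. Of the 309 such genes listed, 250 were tested, and 2 of these (0.8%) were called after véraison, against 1.25% of all genes tested. Their median difference was 0.04 log2 units, and 234 of the 250 lay within 0.5 log2 units of 0. At an unadjusted p below 0.05, 20 were higher and 10 lower. In green berries 67 of the 250 were called. The groups below are described by counts and medians, beside the median of 0.02 over all genes tested. With 1.25% of all genes tested called, most groups or marker sets of this size would hold no call. An absence of calls in them does not show that their genes did not respond.

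Calcium sensors of the CBL family bind CIPK kinases and switch them on. Of 25 tested members 0 were called, with differences from -0.57 to 0.88 and a median of 0.03. CIPK02 was the highest, at 14.4 and 9.00 RPKM at 16 °C and 20.0 and 23.8 RPKM at 38 °C, which do not overlap (0.88 ± 0.21 SE, limma adjusted p = 0.109). It passed without replicate 1 of the unheated berries (0.025) and in limma voom on recovered reads (0.00279). CBL01 differed by 0.32 after véraison and by -0.57 before it, and the interaction was called (0.89, limma adjusted p = 0.0128, and 0.0599 without replicate 2 of the heated ripening berries).

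Of the 14 tested enzymes of flavonoid synthesis, which makes the anthocyanin pigments of the skin, 0 were called, and the median was 0.13. DFR, which reduces dihydroflavonols on the way to anthocyanins, was at 43.8 and 39.4 RPKM in unheated and 52.3 and 55.0 RPKM in heated berries (limma adjusted p = 0.212). F3'H, which hydroxylates the flavonoid B ring, was at 160.4 and 146 and then at 118 and 117 RPKM (limma adjusted p = 0.234). The libraries of the 2 temperatures did not overlap for either gene. None of the 10 tested regulators of the pathway was called. MYBC2-L1, which encodes a MYB repressor of the flavonoid branch, had 10.82 and 13.3 RPKM at 16 °C and 11.4 and 7.77 RPKM at 38 °C, which overlap (-0.32 log2 units). Its response differed from the fall of 2.06 log2 units in green berries (interaction 1.75, limma adjusted p = 0.00435), and the same held for MYBCS1 (1.16, 0.00352) and bZIPC22 (1.39, 0.0078).

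Phenylpropanoid and stilbene genes gave 0 calls among 6 tested, with a median of 0.25. VINST1, a stilbene synthase gene, was at 88.6 and 68.3 RPKM and then at 97.0 and 108 RPKM (limma adjusted p = 0.576). MYB14, a MYB activator of stilbene synthase genes, had 5.05 and 3.02 RPKM at 16 °C and 4.81 and 8.75 RPKM at 38 °C, which overlap.

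Aquaporins, the water channels of the plasma membrane (PIP) and the vacuolar membrane (TIP), gave 0 calls among 10 tested, with a median of -0.10. TIP1;2 had the lowest value, -0.44, at 165 and 237 RPKM and then 137 and 155 RPKM. PIP2;2 was at 146 and 145 RPKM in unheated and at 127 and 130 RPKM in heated berries (-0.18, limma adjusted p = 0.659). Sugar transporters and the invertases that cleave sucrose gave 0 calls among 15 tested of 27 listed, all between -0.29 and 0.30. VVSUC11, a sucrose transporter, was at 44.9 and 41.2 and then at 41.6 and 35.8 RPKM.

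Defence proteins, among them chitinases, thaumatin-like and PR10 proteins, gave 0 calls among 14 tested with a median of 0.08 and differences from -0.40 to 1.04. CHI4C, a class IV chitinase, was at 32 and 15.3 RPKM at 16 °C and at 41.5 and 52.3 RPKM at 38 °C, without overlap (1.04 ± 0.31 SE, limma adjusted p = 0.224). The call turned with 1 library, at an adjusted p of 0.0266 without replicate 1 of the unheated berries, and it was also reached by limma voom on recovered reads (0.00814). PR10.4 was at 8.13 and 2.40 RPKM at 16 °C and at 7.46 and 8.81 RPKM at 38 °C, which overlap (limma adjusted p = 0.587). A call of PR10.4 was reached only without replicate 1 of the unheated berries, which lay above 1 heated library.

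Redox enzymes gave 0 calls among 11 tested, with a median of 0.11. DHAR, the dehydroascorbate reductase that recycles ascorbate, was at 21.6 and 28.4 RPKM and then at 36.5 and 30.7 RPKM (0.42 ± 0.15 SE, limma adjusted p = 0.33). In green berries it had risen by 2.48 log2 units, and the interaction was called (-2.06, limma adjusted p = 0.000217). Oxylipin and phospholipase genes gave 0 calls among 7 tested. LOXO, a lipoxygenase, was the highest of them, at 8.60 and 6.48 RPKM and then at 11.4 and 15.8 RPKM (0.77 ± 0.31 SE, limma adjusted p = 0.429).

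No gene was called among 7 hormone genes, 7 MADS box factors, 4 S-adenosylmethionine synthases, 4 genes of chlorophyll and photosynthesis, 3 alcohol dehydrogenases or 3 WRKY factors. VVGAI1, a DELLA repressor of gibberellin responses, was at 1.45 and 1.22 RPKM in unheated and at 1.05 and 0.906 RPKM in heated berries (-0.24, limma adjusted p = 0.736). ADH2, an abundant alcohol dehydrogenase gene, was at 932 and 933 RPKM and then at 979.9 and 1042 RPKM. The gene listed as WKRY was at 3.62 and 2.55 RPKM and then at 3.12 and 3.0 RPKM, while it rose by 1.64 log2 units in green berries (interaction -1.64, limma adjusted p = 0.00533).

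**Figure D5:**
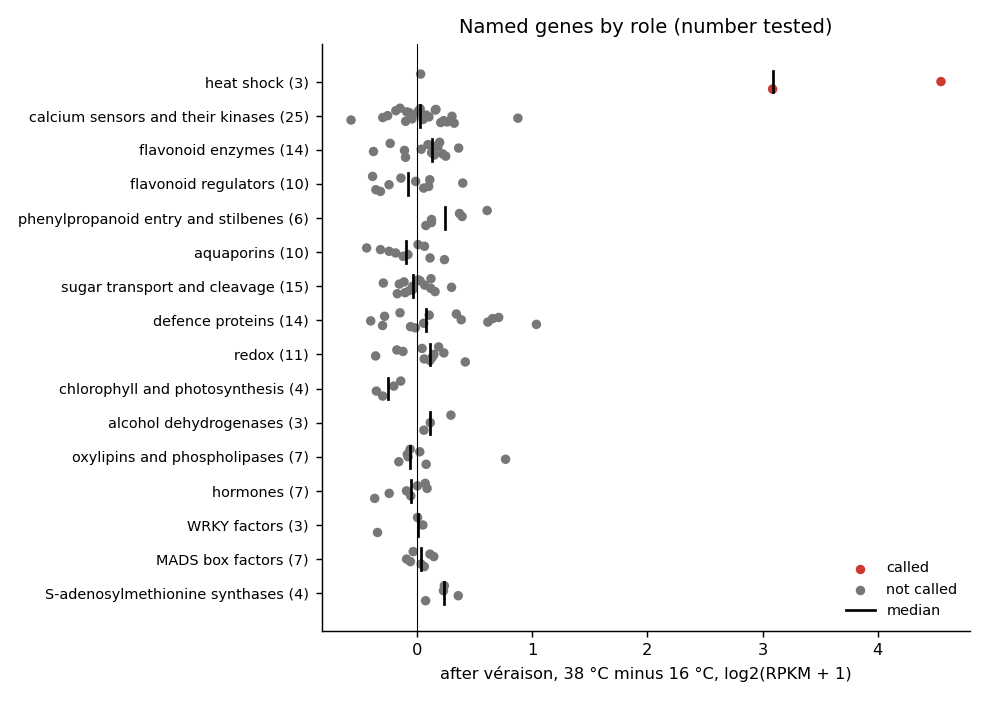
Differences between 38 °C and 16 °C after véraison in log2(RPKM + 1) for the named genes of 16 groups, with the number tested in brackets. Each point is a gene, red where called, and the black bar is the group's median. HSP101 and HsfA2 are the 2 red points, at 3.09 and 4.55, and the highest grey point is CHI4C at 1.04.

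MRIP1, GST4 and GER7, named genes known for ripening fruit, were abundant at both temperatures. MRIP1 lay between 14049 and 15867 RPKM in the 4 libraries, and the glutathione S-transferase gene GST4, which serves anthocyanin transport, between 325 and 405 RPKM. Of 7 such markers 0 were called. The replicates of the germin-like gene GER7 lay far apart, 250.4 and 133 RPKM at 16 °C and 217 and 307 RPKM at 38 °C. Of 4 markers of green berries 0 were called. The polyphenol oxidase gene PPO lay between 0.487 and 2.83 RPKM, PIP1;1 between 0.103 and 0.499 RPKM, the magnesium chelatase subunit gene CHLH between 4.17 and 7.79 RPKM and the photosystem II gene PSBP1 between 17.1 and 27.4 RPKM. Seed markers carried no descriptive name in the reference table and were not read. The 5 most abundant genes at 16 °C, among them MRIP1 and the class IV chitinase gene CHI4D at 13115 and 15692 RPKM, gave 0 calls.

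At the edge of the threshold, the 3 genes just inside were LOC100258684, LOC100254097 and LOC100255095, with limma adjusted p-values of 0.0467, 0.0482 and 0.0484. The 3 just outside had 0.0515, 0.052 and 0.0522. Among named genes those nearest outside were CIPK02 (0.109), MLO15 (0.114), a gene of the MLO family of membrane proteins, and the MYB factor gene MYB4A (0.123). MLO15 was at 8.19 and 10.58 RPKM in unheated and at 15.2 and 14.0 RPKM in heated berries, and MYB4A at 27.6 and 24.6 and then at 35.0 and 34.3 RPKM. Neither gene's libraries overlapped between temperatures. THI1-1 lay on the other side of 0, at 508 and 537 RPKM and then at 344 and 377 RPKM, a difference of -0.54 ± 0.13 (SE) log2 units with a limma adjusted p of 0.125. In limma voom on recovered reads its adjusted p was 0.00772.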

How the data were processed

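Messenger RNA of deseeded berries was sequenced in single-end Illumina libraries. The deposited values are RPKM made by the authors, 1 value per gene and library. Per the submitters' processing notes, Bowtie 0.12.7 and TopHat 1.2.0 were used. The sources used here do not give the genome build, annotation, counting tool, strand or treatment of multiple matches. Of 25771 numeric gene IDs, 18647 matched the reference table (assembly ASM3070453v1), used for symbols and gene order, and 309 carry a descriptive symbol.

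The 16777 genes that reached 1 RPKM in 2 or more libraries were fitted as log2(RPKM + 1) with limma 3.58.1 in R 4.3.3, with a mean per group, an intensity trend, two-sided tests and Benjamini-Hochberg adjustment (4 residual and 6.06 prior degrees of freedom). SEs are moderated, SDs are of RPKM, and fold changes of low genes are understated by the pseudocount. Whole reads and lengths were worked out from the smallest RPKM increments for 20845 of the 20845 genes above 0 in at least 3 libraries (100%, tolerance 2e-05), and 1708 genes above 0 in 1 or 2 libraries were not recovered. Recovered reads and lengths may be too small by a common divisor. The mean chi-square per gene between replicates was 11.0 at 16 °C and 3.97 at 38 °C, above the 1 that sampling noise gives. Replicates were counted as separate on the word of the series design.

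Members, gene lists and tests were chosen with earlier results of these data known. The rule was to name up to 20 rises and 8 falls with a descriptive symbol or product, no overlap and at least 5 RPKM in the higher group. Of 158 such rises 2 had a symbol, and of 21 falls 0. Placeholder symbols were therefore named after their values were seen. The 4 members with the smallest p in each list, every named gene called, 3 genes on each side of the threshold, 4 interactions in each direction and the 5 most abundant genes were also named. Product descriptions and promoter sequences were not used here, so lists of small heat shock proteins, HSP90, DnaJ, co-chaperones, clock, cell wall, proteasome, splicing and reference genes had no member and no motifs were searched. Figures were drawn with matplotlib 3.10.9 in Python 3.11.15, from tables built with pandas 2.3.3 and numpy 2.4.6.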

Additional observations from a re-analysis of the deposited data

Results flagged for a closer look

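These genes are listed because their heat difference after véraison was unlike that before véraison by the test of the interaction itself (limma adjusted p below 0.05, over all 16777 genes). Values are the difference after véraison minus the difference before it, in log2(RPKM + 1), and the reason for any of them was not tested.

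Among named genes the interaction was -3.94 for HSP101, -2.96 for HsfA2 and -1.42 for BiP, all of which rose in green berries. It was -2.07 for the chitinase gene CHI4C, -2.06 for the reductase gene DHAR, -1.64 for WKRY, -1.0 for MRIP1 and -0.65 for the aquaporin gene PIP2;2. It was positive for genes that fell in green berries, at 1.75 for MYBC2-L1, 1.39 for bZIPC22, 1.16 for MYBCS1, 1.29 for PIP1;1 and 0.89 for CBL01. The alcohol dehydrogenase gene ADH3, called at neither stage, had 0.49. With 1 library left out, the calls of CHI4C (4 of 8 libraries), MRIP1 (5), PIP2;2 (6), CBL01 (1) and ADH3 (8) were lost. That of PIP1;1, which rests on 1, 2, 2 and 6 reads in the ripening berries, was lost with a pseudocount of 0.1 (limma adjusted p = 0.0585) and with limma voom on recovered reads (0.134).

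Among the strongest rises the interaction was most negative for LOC100259921 (-6.30) and LOC100265108 (-6.07), neighbours that reached 14.5 and 5.45 RPKM and 13.4 and 5.68 RPKM at 38 °C after véraison. Their calls after véraison were lost without replicate 1 of the heated ripening berries (limma adjusted p = 0.139 and 0.269) or replicate 1 of the unheated ones (0.108 and 0.112), and also without either heated green berry library (0.0926 for LOC100259921 and 0.132 for LOC100265108). LOC100265108 was also lost without either unheated green berry library (0.0638 and 0.0637). Their rises were called in 11 and 6 of the 22 alternatives. It was -5.28 for LOC100257736, -5.24 for LOC100265661, -4.96 for LOC100249153, -4.66 for LOC100250883 and -4.38 for LOC100253548. It was -4.24 for LOC100254252, -4.20 for LOC100243983 and -4.03 for LOC100261109, the run of 3 neighbours. LOC100243757 had -3.73, LOC100244609 -3.03, LOC100260747 -2.71, LOC100261077 -1.93 and LOC100246843 -1.64. A gene with no reference row, listed as 100258676, had -4.05, and another, 100266926, had -2.46, the latter not called without replicate 2 of the heated green berries (0.0843), with a pseudocount of 0.1 (0.0941) or with limma voom on recovered reads (0.134).

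In the stretch of neighbours the values were 3.45 for LOC100263064, 3.16 for LOC100242538, 2.40 for LOC100257932, 2.15 for LOC100245897, 2.15 for LOC100256196, 2.06 for LOC100251039, 2.05 for LOC100247673 and 1.63 for LOC100261290. The last was not called without replicate 2 of the unheated ripening berries (0.0668), either heated ripening library (0.0785 and 0.0857) or replicate 2 of the unheated green berries (0.0703). With a pseudocount of 0.1 and with limma voom on recovered reads, LOC100247673 (0.424 and 0.508) and LOC100261290 (0.0849 and 0.0617) were not called. LOC100247673 lay at 0 to 0.594 RPKM in green berries, and its ratio of means was 6.13 after and 4.41 before véraison. Outside the stretch the positive values among placeholders were 1.83 for LOC100260128, 1.33 for LOC100264994, 1.27 for LOC100246695 and 1.18 for LOC100241568. The last 2 were not called without any 1 of the 4 green berry libraries, nor without replicate 2 of either ripening group.

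Of the genes that fell after véraison, LOC100246641 lost the call of its fall in most fits with 1 library left out. That call was also lost with a pseudocount of 5 (limma adjusted p = 0.0806), no filter on low values (0.13) or no intensity trend (0.0725). The interaction was 1.2 for LOC100246641, a smaller fall than before véraison, and -1.47 for LOC100266481, a larger fall. Without 1 library, 6 of 8 fits lost the former and 2 of 8 the latter.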

How the results depend on the processing

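Counts of genes higher and lower with heat after véraison, 183 and 27 at a limma adjusted p below 0.05, moved by over 1.5 times under some of the 22 alternatives. With only the 4 post-véraison libraries, which leave 2 residual degrees of freedom, they were 36 and 0, and with an adjusted p below 0.01 they were 117 and 5. The genes lower were 9 with no filter on low values, 16 with no intensity trend and 48 with limma voom on recovered reads. Leaving out 1 library at a time gave 91 to 185 genes higher and 3 to 25 lower. The genes with a smaller rise after véraison, 116, were 76 with no filter, 73 with an adjusted p below 0.01 and 58 to 114 with 1 library left out. Those with a larger rise, 20, were 13 with a pseudocount of 0.1, 31 with one of 5, 10 with an adjusted p below 0.01 and 10 to 29 with 1 library left out. All of these are totals of each fit, which may include genes outside the 183 and 27. The cause of these moves was not tested. Where 1 library of a group was left out, the lone sample was assumed to vary like the other groups. The 3 scalings gave 163 to 180 genes higher.

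Over all genes tested, replicate deviations were nearly uncorrelated between the temperatures (-0.0187 after and 0.0255 before véraison). Such a value over all genes cannot show whether samples of the same replicate number belong together. With the replicate number as a block the counts were 166 higher and 19 lower over all libraries, and 8 and 0 over the 4 post-véraison libraries, where HSP101 and HsfA2 were not called (limma adjusted p = 0.129 and 0.1). The stretch of neighbours kept 8 of its 10 called genes with only the 4 post-véraison libraries and 5 with the block added. With a pseudocount of 0.1 and all libraries it kept 8, without LOC100264828 (limma adjusted p = 0.0583) and LOC100247673 (0.096).

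For single genes, 4419 of 4692 values kept their side of the threshold, 236 lost a call, 35 gained one and 2 reversed. The reversed ones were the interaction of LOC100241568, -0.42 with a pseudocount of 0.1 and -0.35 with limma voom on recovered reads. Many of the 4692 values belong to named genes far from the threshold, which had no call to lose. The share kept is therefore no measure of how well the calls hold. An exact permutation of 2 against 2 libraries cannot go below p = 0.333. At the depth of these libraries, 3 reads of a gene of median length made up to 0.238 RPKM, so lower values rest on fewer reads still.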
